A study of Mus musculus with 28 samples.

Results

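Cadherins and protocadherins are the calcium-dependent adhesion receptors by which cells of the developing brain recognise and hold each other. The members described here were all genes named Cdh or Pcdh with a number or a cluster letter, together with Celsr1 to Celsr3, Fat1 to Fat4 and Dchs1. Of these, 63 genes had a probe under their current symbol, carried by 73 probes, and all 63 were among the 22225 genes and unnamed probes tested. They comprised 5 type I classical cadherins (Cdh1, Cdh2, Cdh3, Cdh4 and Cdh15), 11 type II classical cadherins, 5 other Cdh genes, 24 protocadherins of the gene clusters (22 of them Pcdhb genes), 12 protocadherins outside the clusters and 6 large cadherins (Celsr1, Celsr3, Fat1, Fat3, Fat4 and Dchs1). For 37 further symbols of the family no probe had the name after this update, namely Cdh12, Cdh19, Celsr2, Fat2 and 33 Pcdha and Pcdhg genes. The array annotation calls the probe of Pcdha9 Pcdha4 and that of Pcdhga5 Pcdhga7, and both were renamed by their accessions. A probe that the array annotation calls Pcdh21 belongs to Cdhr1 and was not counted. On the chromosome map 27 of the 63 genes lie on chromosome 18, among them all 24 clustered ones, and 0 lie on chromosome 16 or 12.

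Total RNA of single cerebella was measured on 28 2-colour spotted arrays, each with 1 Ts1Cje and 1 euploid mouse, 56 mice in all. The labels give the strain as B6EiC3SnF1/J A/a, whereas the methods name a mixed B6C3SnF1/Orl background. Ts1Cje mice carry a segment of chromosome 16, from Sod1 to Znf295, in 3 copies, were identified by a neomycin gene and were born to Ts1Cje males and wild-type females. The line is also known to lack a small piece of 1 chromosome 12. Both mice were at postnatal day P0, P3, P7 or P10 on 16 arrays, 4 per stage. On the other 12 they differed by a step of age, 4 arrays for each of P0 to P3, P3 to P7 and P7 to P10, 2 with the Ts1Cje and 2 with the euploid mouse the older. Each array paired a male with a female according to the series record, but no label gives a sex. An array name gives the Ts1Cje stage first, so that on P7/P3 the trisomic animal was the older. The same-stage arrays are given as Ts1Cje minus euploid and the cross-stage arrays as older minus younger, both as log2 ratios, so no value is an expression level.

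Classical cadherins bind like to like across the cell junction and are anchored to actin through catenins. Type I members are broadly expressed in tissue layers, whereas type II members tend to mark particular brain nuclei and fibre tracts. Clustered protocadherins are chosen in different combinations by single neurons and serve self-recognition of their branches. Celsr proteins act in planar polarity and axon guidance, and Fat4 and Dchs1 are receptor and ligand of each other. In the first days after birth granule cell precursors of the cerebellum divide in the outer layer and their daughters migrate inward, while Purkinje cells grow their dendrites.

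Array values numbered 11185 to 23732 per array, spots near the background having been left out by the authors. The 63 members had a value on 15 to 28 arrays (median 26, and 25 over all features tested), and 14 of them on all 28. P10/P7 replicate 2, P10/P10 replicate 4 and P0/P0 replicate 1 had the fewest values. P7/P7 replicate 4 carries conflicting stage labels and was taken as P7. Ratios give no level by which to check the labelled tissue. Probes of 6 of 6 granule neuron markers and of 5 of 6 Purkinje cell markers were measured. Since 22225 of 23219 features were tested, this is no check of the tissue either. From P3 to P7, 1 of the 6 granule neuron markers passed, Neurod1 (log2 0.97, limma adjusted p = 0.00799), and of the Purkinje cell markers 1 passed, Foxp2 (-1.89, adjusted p = 0.0112). Of 6 markers of granule cell precursors 1 passed, Ccnd1 (-2.46, adjusted p = 0.00204), and of 4 oligodendrocyte markers 1 passed, Mbp (5.66-fold, adjusted p = 0.00999), with Mog at a log2 value of -0.88. At this step 1.26% of all features passed, and the other markers of these lists did not.

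Between P3 and P7 Cdh3 rose and Cdh11 fell, the only members that passed after adjustment in any comparison with age or genotype. Cdh3, P-cadherin, a type I cadherin of epithelia, had older minus younger log2 ratios of 2.18 and 1.41 on the 2 P7/P3 arrays and of 1.10 and -0.21 on the 2 P3/P7 arrays. It was higher in the older mouse on 3 of 4 arrays, and the array below 0 was P3/P7 replicate 1. The fit gave a 2.17-fold rise (95% interval 1.54 to 3.07, log2 1.12, SE 0.24, limma adjusted p = 0.0234). Cdh11, a type II cadherin of mesenchymal cells that is also found in brain, had ratios of -1.64 and -1.48 on the P7/P3 arrays and of -1.02 and -0.83 on the P3/P7 arrays. All 4 arrays were lower in the older mouse. The fit gave a ratio of 0.422 (95% interval 0.272 to 0.655, log2 -1.24, SE 0.31, limma adjusted p = 0.0428). Each gene has 1 probe. In whole cerebellum fewer cells of a type and less RNA per cell cannot be told apart.

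Over all features 1.26% passed at this step, 0.846% higher and 0.414% lower, and 2 of 63 members is a small count to set against that share. At an unadjusted p below 0.05 there were 9 members, 4 higher and 5 lower, where 12.9% of all features had one (7.07% higher and 5.84% lower). The median of the 63 was -0.09 on the log2 scale and that of all features -0.0065. Both calls rest on few arrays, since the genotype average of a step is carried by its 4 cross-stage arrays and the others add only to the estimate of the spread. Cdh11 kept its call in 15 of 28 fits without 1 array and Cdh3 in 25 of 28. Leaving out an array other than those 4 left both log2 values as they were. Cdh3 passed without P3/P7 replicate 1. It did not without P7/P3 replicate 1, P3/P7 replicate 2 or P7/P3 replicate 2 (adjusted p = 0.094, 0.176 and 0.154). Cdh11 did not pass without any of the 4 (adjusted p from 0.108 to 0.215). In its other failing fits the adjusted p was 0.0501 to 0.0547. Neither gene passed when all arrays were scaled to the same spread (adjusted p = 0.144 for Cdh11 and 0.0961 for Cdh3).

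Neither gene passed at the neighbouring steps, and the difference between steps was not tested. From P0 to P3, Cdh11 ratios on the 4 arrays were 0.22, 0.00, -0.08 and 0.13, and from P7 to P10 they were 0.13, 0.92, -0.29 and 1.40. The fitted step was 0.07 (SE 0.31) before and 0.54 (SE 0.31) after, and over the whole span from P0 to P10 it was -0.64 (SE 0.53, adjusted p = 0.808). Cdh3 had a fitted step of -0.23 (SE 0.24) from P0 to P3 and of 0.03 (SE 0.38) from P7 to P10, where only 2 of the 4 arrays had a value. Its whole-span value was 0.92 (SE 0.51, adjusted p = 0.673). The euploid step from P3 to P7, not averaged over genotypes, was 1.14 for Cdh3 (adjusted p = 0.0658) and -1.33 for Cdh11 (adjusted p = 0.0833). It comes from the same fit to all arrays, Ts1Cje mice included, since no array compared euploid mice alone.

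Markers of the cells in which Cdh11 is known outside neurons were given beside it. Of 5 meningeal genes (Col1a1, Col1a2, Dcn, Lum and Col3a1) 0 passed from P3 to P7, and their log2 ratios ran from -0.93 for Lum to 0.47 for Col1a2 with a median of -0.15. Of 5 choroid plexus genes 0 passed, with a range from -0.66 to 0.42. Their part in the fall of Cdh11 was not tested.

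**Figure D1:**
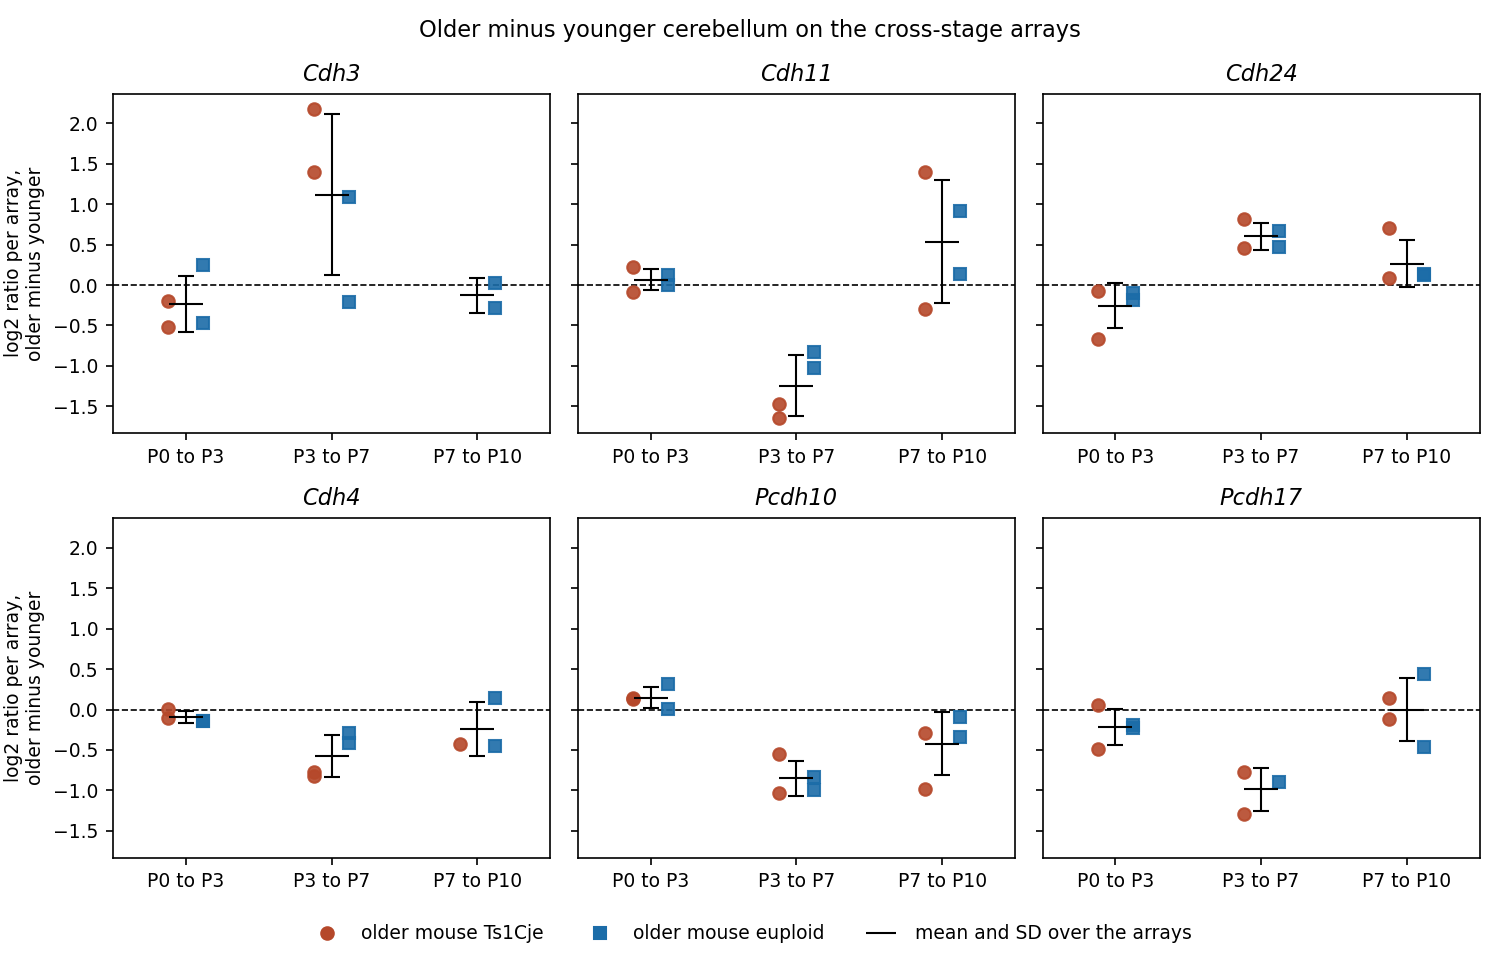
Log2 ratios of older minus younger cerebellum on each cross-stage array (vertical axis) for 6 genes at the 3 steps of age (horizontal axis). Circles have the Ts1Cje mouse older and squares the euploid mouse, and bars are the mean and SD over the arrays with a value. Cdh11 lay between -1.64 and -0.83 from P3 to P7, below 0 on 4 of 4 arrays, and Cdh3 above 0 on 3 of 4.

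The other type I cadherins did not pass at any step. Cdh2, N-cadherin, the main cadherin of neural tissue, had ratios of -0.75 and -0.31 on the P3/P7 arrays and of -0.29 and -0.65 on the P7/P3 arrays, all 4 below 0, with a fitted log2 value of -0.50 (SE 0.27, adjusted p = 0.45). Cdh4, R-cadherin, first described in retina, had -0.30, -0.41, -0.78 and -0.82, again all below 0, and a fitted value of -0.58 (SE 0.20, adjusted p = 0.184). Cdh15, M-cadherin, first described in muscle, had a fitted value of 0.13 (SE 0.22). Cdh1, E-cadherin, the gene beside Cdh3 on chromosome 8, had a value on 3 of the 4 arrays, and these were -0.65, 0.73 and -0.62. Its fitted value was -0.09 (SE 0.63), and its interval of 0.376 to 2.34-fold included an increase of the size seen for Cdh3.

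Among the 11 type II cadherins, Cdh24 was the next after Cdh11. This cadherin, which binds catenins like other classical members, had ratios of 0.67 and 0.47 on the P3/P7 arrays and of 0.46 and 0.82 on the P7/P3 arrays, the narrowest set of the 6 genes plotted by array. The fit gave 1.52-fold (95% interval 1.19 to 1.94, adjusted p = 0.0818). Cdh5, VE-cadherin of endothelial junctions, lay between -0.69 and -0.08 on all 4 arrays, with a fitted log2 value of -0.41 (SE 0.22, adjusted p = 0.462). Beside it, 1 of 6 endothelial markers passed, Pecam1 (log2 -1.13, limma adjusted p = 0.0481), where 1.26% of all features did. At an unadjusted p below 0.05, 2 of these markers were lower, as were 5.84% of all features. The part of endothelial cells was not tested. The fitted values of the other 8 ran from -0.35 for Cdh6 to 0.67 for Cdh9, none with an unadjusted p below 0.05.

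Of the protocadherins outside the clusters, 10 of 12 had a log2 value below 0 from P3 to P7 and 3 of them an unadjusted p below 0.05, with a median of -0.37. Over all features 49.5% were above 0 at this step and 5.84% were lower at that threshold. The family median was below 0 on each of the 4 arrays, at -0.17, -0.73, -0.28 and -0.46. These genes fall into delta-1 members (Pcdh1, Pcdh7, Pcdh9 and Pcdh11x), delta-2 members (Pcdh8, Pcdh10, Pcdh17, Pcdh18 and Pcdh19) and others. All 5 delta-2 genes were below 0, from -1.41 to -0.28, and all 4 delta-1 genes, from -0.68 to -0.12. None passed after adjustment. The value of Pcdh9 averages 3 probes that differed in sign, with means of 0.14, 0.02 and -0.51. Pcdh10, which acts in the sorting and growth of axons, had ratios of -0.99 and -0.83 on the P3/P7 arrays and of -1.03 and -0.55 on the P7/P3 arrays. Its fitted ratio was 0.554 (95% interval 0.358 to 0.857, adjusted p = 0.188), and without P10/P10 replicate 4 the adjusted p was 0.00679 at the same log2 value of -0.85. On that array Pcdh10 had a Ts1Cje minus euploid difference of 2.53, where the other P10/P10 arrays lay between -0.38 and 0.09. Pcdh17, a member with roles in synapses and axons, was measured on 3 of the 4 arrays, at -1.29, -0.90 and -0.78, with a fitted ratio of 0.514 (95% interval 0.344 to 0.768, adjusted p = 0.0959). Pcdh19, an X-linked gene whose mutations in humans cause an epilepsy, had -0.43, -0.84, -2.99 and -1.37, the widest spread of the 3, with a fitted log2 value of -1.41 (SE 0.53, adjusted p = 0.227). The sexes of its mice are not labelled and differed on each array. The 2 values above 0 belonged to Pcdh20 (0.48, SE 0.27) and to Pcdh15, the tip-link protocadherin of hair cells (0.06, SE 0.50).

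Because Pcdh10, Pcdh17 and Pcdh19 had the lowest values of this group from P3 to P7, the 250 bases before their RefSeq starts (GRCm38.p6) are shown, 5′ to 3′ on the strand of the gene. The RefSeq promoter table held 25 of the 63 members. Pcdh10 is given as chr3:45378148-45378397 (plus strand), Pcdh17 as chr14:84443313-84443562 (plus strand) and Pcdh19 as chrX:133688994-133689243 (minus strand). Capitals mark CCAAT and GGGCGG on either strand, here all read on the opposite strand as ATTGG and CCGCCC, with no overlap between them.
Pcdh10: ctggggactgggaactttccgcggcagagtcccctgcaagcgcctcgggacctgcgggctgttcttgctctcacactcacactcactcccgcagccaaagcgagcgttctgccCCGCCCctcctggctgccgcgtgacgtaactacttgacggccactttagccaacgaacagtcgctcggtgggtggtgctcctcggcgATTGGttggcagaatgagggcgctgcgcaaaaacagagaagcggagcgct
Pcdh17: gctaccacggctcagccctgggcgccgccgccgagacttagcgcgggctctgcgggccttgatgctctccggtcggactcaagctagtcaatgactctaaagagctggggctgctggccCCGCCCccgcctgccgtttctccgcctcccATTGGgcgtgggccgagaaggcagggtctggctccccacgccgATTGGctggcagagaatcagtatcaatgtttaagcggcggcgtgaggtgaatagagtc
Pcdh19: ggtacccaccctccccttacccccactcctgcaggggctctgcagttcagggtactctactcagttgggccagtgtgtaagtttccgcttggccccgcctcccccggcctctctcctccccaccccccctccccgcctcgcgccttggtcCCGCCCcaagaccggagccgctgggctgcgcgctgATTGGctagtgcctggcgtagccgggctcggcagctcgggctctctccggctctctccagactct
Each of the 3 holds both motifs, with 2 copies of CCAAT in Pcdh17 and 1 in the others, and 1 copy of GGGCGG in each. Of all 32851 such promoters, 33.8% hold CCAAT, 32.7% hold GGGCGG and 11% hold both. The genes and motifs were chosen after the values were seen, and a match of letters is a description only.

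**Figure D2:**
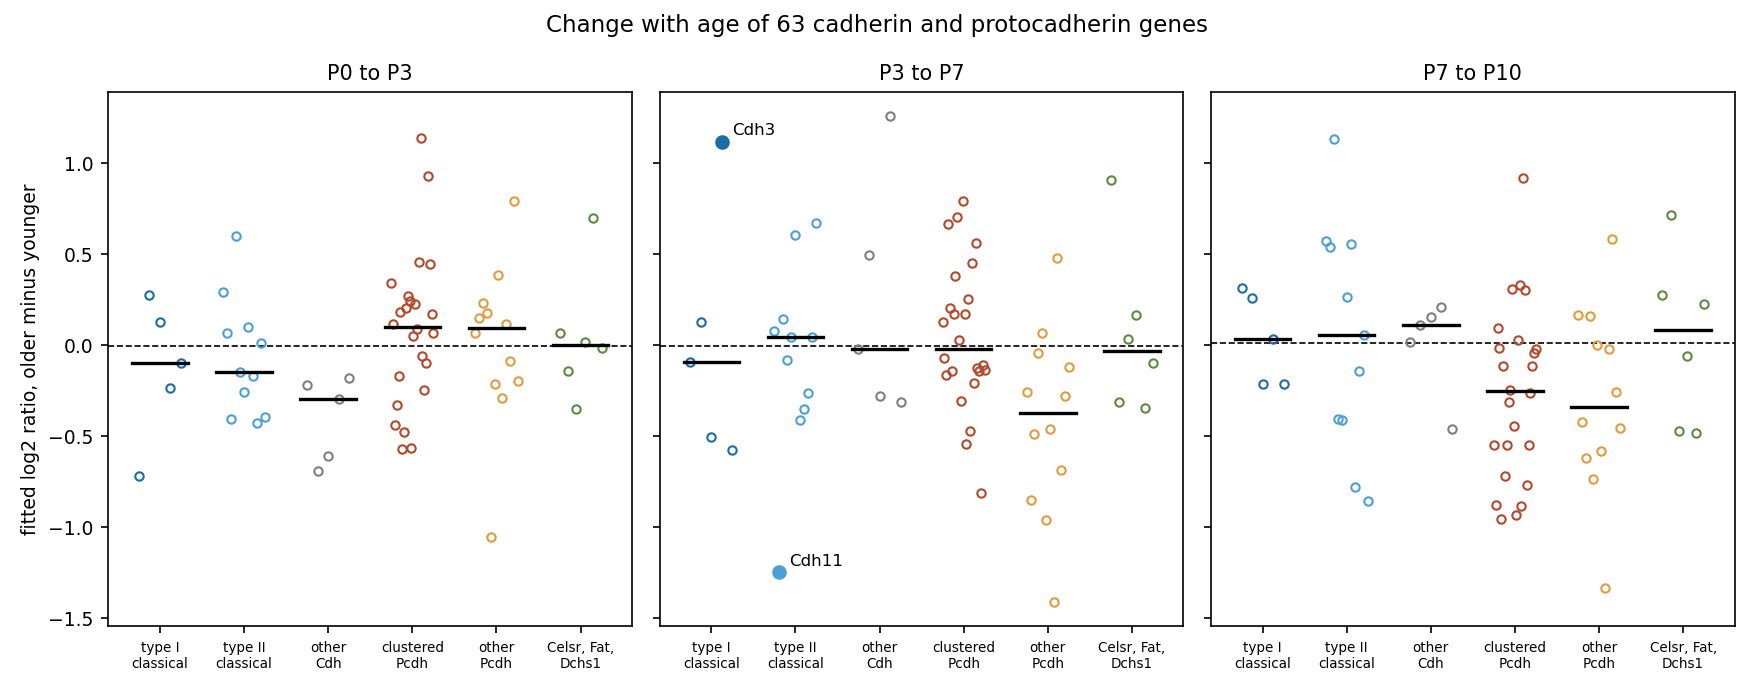
Fitted log2 ratios of older minus younger (vertical axis) for each of the 63 genes, by family (horizontal axis) and step of age (panels). Filled points passed at a limma adjusted p below 0.05, which only Cdh3 and Cdh11 did, short bars are family medians and the dashed line is the median of all features. Protocadherins outside the clusters had a median of -0.37 from P3 to P7 and of -0.34 from P7 to P10.

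The clustered protocadherins did not move together with age from P3 to P7, with 12 of 24 values above 0 (49.5% of all features), a median of -0.02 and 0 with an unadjusted p below 0.05. Their values ran from -0.81 for Pcdhb8 to 0.79 for Pcdhb19. From P7 to P10, 6 of 24 were above 0 and the median was -0.25, where 51.4% of all features were above 0 and their median was 0.015. By array, the family median was -0.73 and -0.37 where the older mouse was on Cy5. It was 0.12 and 0.01 where the older mouse was on Cy3, the latter on P10/P7 replicate 2 with only 10 of the 24 genes. The part of the dye in this step was not tested. Pcdhb5 alone had an unadjusted p below 0.05 from P7 to P10 (log2 -0.77, SE 0.28, limma adjusted p = 0.374). Its ratios were 0.19, -0.18 and -0.10 on 3 arrays and -2.99 on P10/P7 replicate 2, and without that array the value was -0.03. From P3 to P7 the same gene had 0.43, 0.75, 0.71 and 0.37, all above 0 (fitted 0.56, SE 0.28, adjusted p = 0.415), and passed once the 3 sparsest arrays were left out (adjusted p = 0.0239). The 2 clustered genes outside Pcdhb were close to 0 from P3 to P7, Pcdhga5 with -0.14 (SE 0.13) and Pcdha9 with 0.13 (SE 0.46). Pcdhb genes are alike in sequence and each has 1 probe, so a probe can also have bound a neighbour.

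The clustered genes leaned toward the Cy3 dye whichever mouse carried it, and the classical and large cadherins leaned the same way to a smaller extent. As Cy5 over Cy3, the median of the 24 was below 0 on 26 of 28 arrays, from -0.73 to 0.05. It was -0.32 over the 14 arrays with Ts1Cje on Cy5 and -0.28 over the 14 with Ts1Cje on Cy3. The type II median was below 0 on 25 of 28 arrays (median -0.12), the type I median on 20 (-0.17) and the large cadherin median on 19 (-0.06). Against these, it was 12 of 28 for the protocadherins outside the clusters (median 0.04) and 11 of 28 for the other Cdh genes (0.08). The fitted dye offset was below 0 for 19 of the 24 clustered genes and for 43.9% of all features. The difference between families was not tested. A dye offset in the fit passed, lower in Cy5, for 6 of the 24 (Pcdhb1, Pcdhb2, Pcdhb12, Pcdhb15, Pcdhb16 and Pcdhb19), against 5.59% of all features (8.01% in either direction). Pcdhb16 had the lowest offset, -2.10 (SE 0.25, limma adjusted p = 7.62e-06). Its Cy5 over Cy3 values ran from -7.57 to 0.21 (median -2.15) with Ts1Cje on Cy5 and from -2.93 to -0.54 (median -1.95) with Ts1Cje on Cy3, below 0 on 27 of 28 arrays. With the dye in the fit, the SE of its mean Ts1Cje minus euploid difference of -0.13 went from 0.50 to 0.25. The difference itself could not move, since the dye was balanced over its 28 arrays. Over all 63 members 9 offsets passed, 8 of them lower, among them Cdh2 (-0.38, SE 0.06, adjusted p = 0.000386) and Cdh7 (-0.60, SE 0.13, adjusted p = 0.00573). Cdh16, a cadherin of kidney, was the 1 higher (0.61, adjusted p = 0.0458). The offsets of Cdh3 (-0.13, SE 0.10) and Cdh11 (-0.22, SE 0.11) did not pass, and both genes passed from P3 to P7 with the dye in the fit (adjusted p = 0.0175 and 0.0273). Their log2 values were unchanged, the dye being balanced over the arrays of that step. This look at the dye was added after the values were seen.

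**Figure D3:**
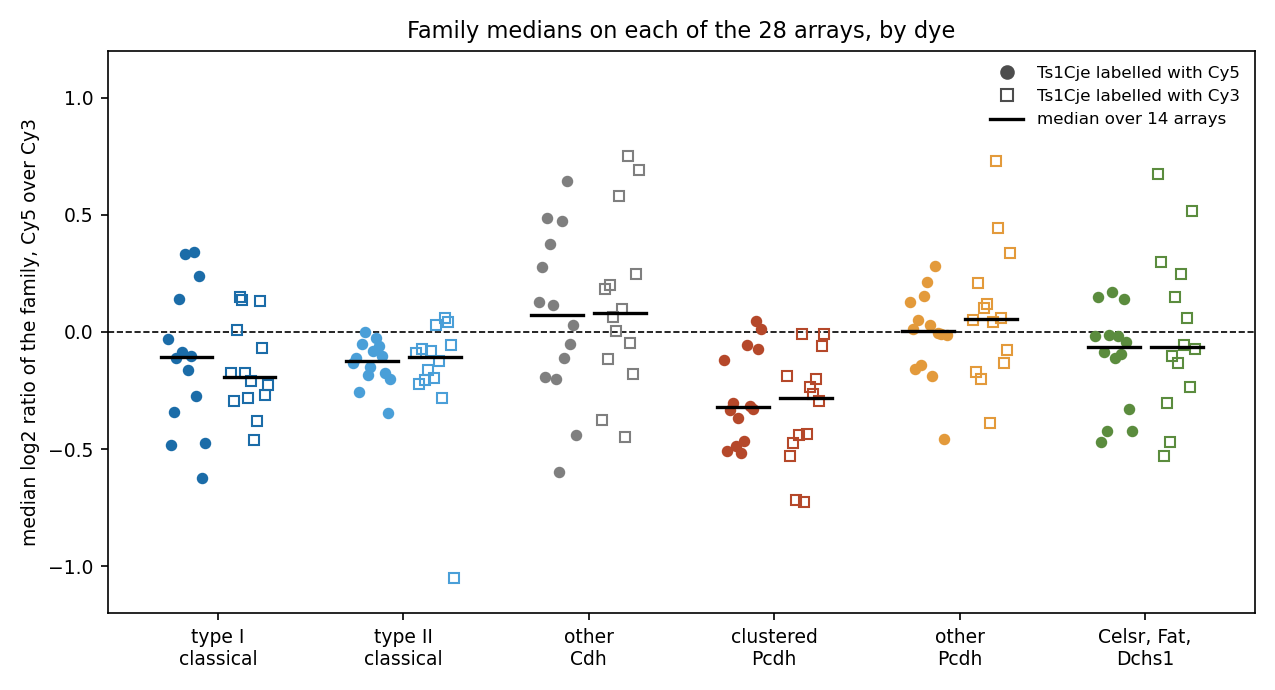
Median log2 ratio of Cy5 over Cy3 over the members of a family (vertical axis) on each of the 28 arrays, by family (horizontal axis). Filled circles are arrays with Ts1Cje on Cy5, open squares arrays with Ts1Cje on Cy3, and bars are medians over 14 arrays. The clustered protocadherins lay below 0 on 26 of 28 arrays, 12 of 14 with Ts1Cje on Cy5 and 14 of 14 with Ts1Cje on Cy3.

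The large cadherins showed no common direction from P3 to P7, with 3 of 6 values above 0. Celsr1, a planar polarity cadherin, had ratios of 0.61 and 2.40 on the P3/P7 arrays and of 1.35 and -0.73 on the P7/P3 arrays. Its fitted value was 0.91 (SE 0.34, adjusted p = 0.207), and leaving out 1 array moved it from 0.42 without P3/P7 replicate 2 (adjusted p = 0.793) to 1.45 without P7/P3 replicate 2 (adjusted p = 0.0492). Celsr3, which guides axons, had -0.31 (SE 0.47). Fat1, a regulator of actin and growth, had 0.17 (SE 0.20), and Fat3, which shapes dendrites of retinal neurons, -0.34 (SE 0.41). Fat4 had -0.10 (SE 0.31) and its ligand Dchs1 0.03 (SE 0.30). The 2 probes of Fat3 had means of -0.88 (SD 0.76, n = 4) and 0.74 (SD 0.57, n = 3), and those of Fat4 0.45 (SD 1.51, n = 4) and -0.65 (SD 0.61, n = 4), so probes of the same gene disagreed in sign. The same held for Cdh10, Cdh18, Dchs1 and Pcdh9 among the 7 members with more than 1 probe.

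Of the 5 other Cdh genes, Cdh23, the tip-link partner of Pcdh15 in hair cells, had ratios of 2.05 and 2.05 on the P3/P7 arrays and of 0.91 and 0.03 on the P7/P3 arrays, all above 0. Its fitted ratio was 2.39 (95% interval 1.26 to 4.53, adjusted p = 0.184). Cdh13, T-cadherin, which is held in the membrane by a lipid anchor, lay between -0.29 and 0.19, with a fitted value of -0.02 (SE 0.23) and an interval of 0.703 to 1.38-fold.

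No member passed at the other steps. From P0 to P3, 2 of 63 had an unadjusted p below 0.05, where 7.25% of all features had one and 0.036% passed after adjustment. These were Pcdhb7, with 1.28, 1.46 and 0.24 on 3 arrays (fitted 0.93, SE 0.44), and Pcdh15, with 0.64, 0.20, -1.89 and -3.16 (fitted -1.05, SE 0.50). Leaving out 1 array moved Pcdh15 between -1.68 without P3/P0 replicate 1 and -0.27 without P0/P3 replicate 2, with -0.70 without P3/P0 replicate 2. From P7 to P10, 3 had one, where 9.09% of all features had one and 0.0045% passed. Besides Pcdhb5 these were Cdh18, a type II cadherin of the nervous system, and Cdh5. Cdh18 had ratios of -0.01, -0.24 and -0.19 on 3 arrays and of 4.97 on P10/P7 replicate 2, and without that array its value went from 1.13 to -0.17. Cdh5 was measured on 3 arrays, at 0.24, 0.47 and 0.91 (fitted 0.56, SE 0.26, adjusted p = 0.527), and its value was 0.35 without P10/P7 replicate 1.

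From P0 to P10 no array compared both ages, and the value is the sum of the 3 steps. Here 5 members had an unadjusted p below 0.05, where 8.05% of all features had one and 0.045% passed. The log2 values were -1.17 (SE 0.44) for Pcdh17, -1.13 (SE 0.53) for Pcdh10, -3.03 (SE 1.14) for Pcdh19, -0.89 (SE 0.37) for Cdh4 and 0.61 (SE 0.29) for Cdh24, with adjusted p from 0.516 to 0.614. All 5 had their P3 to P7 step in the same direction, which is a term of the sum. In the test of any change with age 7 of 63 had an unadjusted p below 0.05 (12.9% of all features) and 0 passed, where 0.567% of all features did (smallest adjusted p 0.105).

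Between Ts1Cje and euploid cerebellum no cadherin or protocadherin gene passed. As the mean over the 4 stages, 0 of 63 had an unadjusted p below 0.05, where 4.08% of all features had one and 0.018% passed after adjustment (limma, smallest adjusted p among members 0.993). The 63 log2 differences lay between -0.42 for Cdh6 and 0.29 for Pcdhb14, 32 of them above 0, with a median of 0.01 where that of all features was -0.0023. The 95% intervals of the ratios ranged from a lowest bound of 0.445 to a highest of 2.26, which is wide for the least precise members. For Cdh2 the log2 difference was 0.02 (SE 0.10), and for Cdh4 it was -0.02 (SE 0.08). Pcdh11x, an X-linked delta-1 protocadherin, came closest to the unadjusted threshold (-0.22, SE 0.11), a gene named after its value was seen and whose arrays each paired unlabelled sexes.

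At P0, 1 member had an unadjusted p below 0.05 (4.43% of all features; 0% passed after adjustment). This was Cdh11, with differences of -2.14, -0.66, -0.04 and -0.20 on the P0/P0 arrays, all below 0, and a fitted value of -0.58 (SE 0.28, adjusted p = 0.9999). The lowest value came from P0/P0 replicate 1, one of the arrays with few values, and without it the fitted value was -0.18. At P3, 2 had one (5.61%; 0.0045% passed). Pcdh12, a protocadherin of endothelium and trophoblast, had 0.02, 3.05, 0.35 and 0.72 (fitted 0.65, SE 0.29), and without P3/P3 replicate 2 its value was 0.12. Cdh3 had 0.81, 0.14, 0.05 and 0.87 (fitted 0.44, SE 0.20, adjusted p = 0.875). At P7, 1 had one (1.73%; 0% passed), Cdh17, a cadherin of intestine, with 0.38, 0.61, 0.88 and 0.63 (fitted 0.71, SE 0.28).

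At P10, 4 had one (5.21%; 0% passed), and in all 4 of them P10/P10 replicate 4 was the array farthest from 0. Cdh6, a type II cadherin of kidney and brain, had 0.33 and 0.37 on 2 arrays and -5.73 on that array, so its fitted value of -1.68 became 0.35 without it. Pcdh18 had 0.72, 0.43, 0.32 and 2.65 (fitted 0.84, SE 0.39, and 0.33 without that array), and Dchs1 had 0.55, 0.14, 0.24 and 1.32 (fitted 0.70, SE 0.27). Pcdhb7 had -0.36, -0.16, -1.30 and -1.69 (fitted -0.77, SE 0.35). Without the 3 arrays with the fewest values 0 of the 62 members still tested had an unadjusted p below 0.05 at P10. The difference of the Ts1Cje effect between stages had an unadjusted p below 0.05 for 0 members (3.08% of all features) and passed for 0 (0% of all features).

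**Figure D4:**
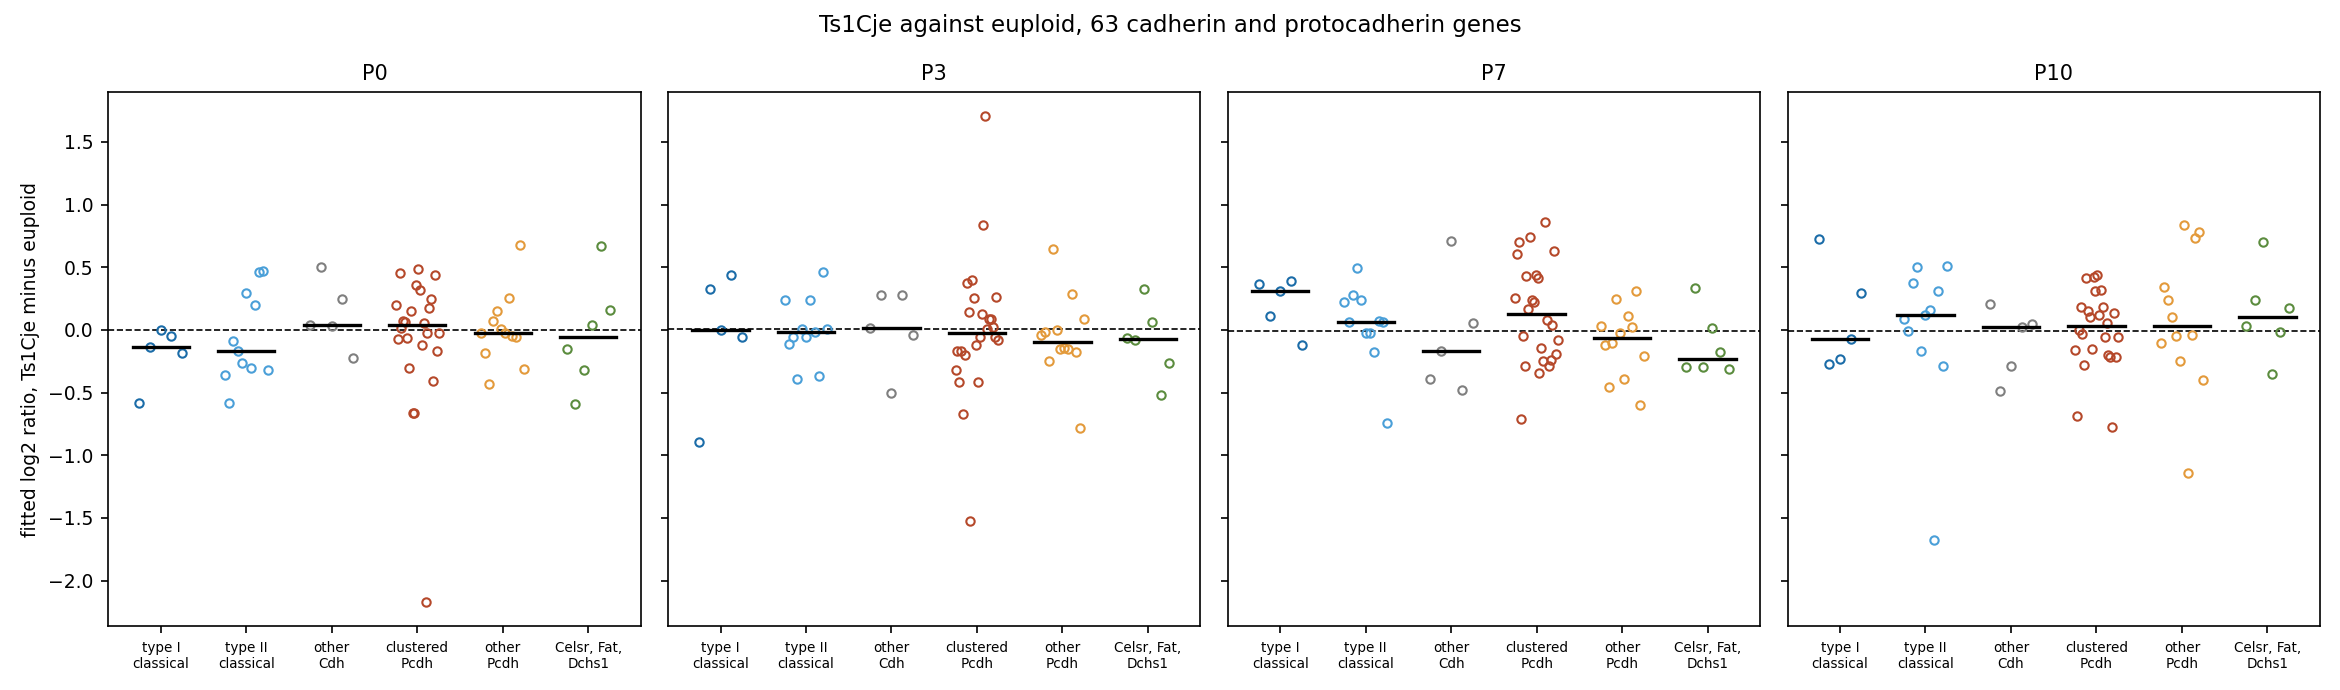
Fitted log2 ratios of Ts1Cje minus euploid (vertical axis) for each of the 63 genes, by family (horizontal axis) and stage (panels). Short bars are family medians and the dashed line is the median of all features, and no point passed at a limma adjusted p below 0.05. The values ranged from -2.17 for Pcdhb3 at P0 to 1.71 for Pcdhb3 at P3, a gene with a value on only 15 of 28 arrays, the fewest of any member.

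Genes whose products work with cadherins gave 46 tested of 49 listed, among them catenins, nectins, planar polarity partners of Celsr, proteases and desmosomal cadherins. From P3 to P7, 1 was higher and 3 were lower at an unadjusted p below 0.05 and 0 passed. Of all features 7.07% were higher and 5.84% lower at that threshold, and 1.26% passed. Closest was Jup, plakoglobin, which links cadherins to the cytoskeleton (log2 0.53, SE 0.14, adjusted p = 0.08). Lima1, an actin linker of the cadherin complex, had -0.88 (SE 0.27, adjusted p = 0.127). Among the 10 catenin genes the median was -0.04. As the mean over stages, 1 partner was higher and 2 were lower between genotypes at an unadjusted p below 0.05, where 4.08% of all features had one. The higher was Lats2, a kinase downstream of Fat, at 0.39 (SE 0.18). The lower were Ctnna3, an alpha catenin, at -0.35 (SE 0.16), and Smchd1, a chromatin regulator of the protocadherin clusters, at -0.53 (SE 0.21). None passed after adjustment (smallest adjusted p 0.993).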

How the data were processed

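The authors deposited log2 ratios of Cy5 over Cy3 per array, made from background-subtracted median pixel intensities by local LOWESS normalization within each array, with no value kept for controls, misshapen spots, or signals that did not reach 1.2 times their surroundings. Here each log2 value was turned to Ts1Cje minus euploid by the dye labels, and probes of the same gene were averaged (25344 probes, 257 of them control spots left out, 23219 features). Symbols were updated through accessions and a table of RefSeq genes (GRCm38.p6), which also gave chromosomes.

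A model with 7 parameters, 3 for age and 4 for the genotype at each stage, was fitted to all 28 arrays for every feature with a value on at least 14 arrays and 5 residual degrees of freedom, with limma 3.58.1 variances in R 4.3.3 (data.table version 1.17.8) and Benjamini-Hochberg adjustment over the 22225 features, at a threshold of 0.05. Steps of age were averaged over both genotypes. The fit was tested on simulated data. Figures were drawn with matplotlib 3.10.9 under Python 3.11.15, from tables made with numpy 2.4.6 and pandas 2.3.3. The median SE of a log2 ratio over all features was 0.166 for the mean over stages, 0.351 to 0.401 at a stage, 0.412 to 0.449 for a step and 0.747 from P0 to P10. The number of arrays limits the precision.

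Mice are individual animals. The sample labels name no litter, and the litters by which the study identified its mice were not used here, so litter mates are not accounted for. The members and lists were chosen with earlier results of these data known. Named genes were members that passed in any contrast, up to 8 per contrast with an unadjusted p below 0.05, and a fixed set of classical and large cadherins with Pcdh10 and Pcdh17, and any other gene was named after its values were seen, as an end of a range or in a count. Alternatives changed the dye and variance terms, filters, scaling, probe choice and arrays.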

Additional observations from a re-analysis of the deposited data

Results flagged for a closer look

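In 26 sets of 4 arrays behind a named value, 3 held an array that stood apart from the other 3 by Dixon's ratio at the 95% level. About 1 set in 20 would do so by chance if sets were picked blind to their values and arrays had equal spread. Neither held here, since these 3 genes were named for an unadjusted p below 0.05 and array SDs ran from 0.42 to 1.76. Cdh18 from P7 to P10 had 4.97 on P10/P7 replicate 2, where the other arrays lay between -0.24 and -0.01. Pcdhb5 from P7 to P10 had -2.99 on the same array, with the others between -0.18 and 0.19. Pcdh18 had a Ts1Cje minus euploid difference of 2.65 on P10/P10 replicate 4, with the others between 0.32 and 0.72. Both arrays were among the 3 with the fewest values, and the part of that in these ratios was not tested.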

How the results depend on the processing

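No paired analysis was possible because the replicate numbers were given in accession order within each group and pair no samples, and litters were not used here. Of 456 recomputed counts of members past the adjusted threshold, most of them 0, 432 stayed within 1.5 times the reported count. Counts at an unadjusted p below 0.05 moved more. Leaving out 1 array and under other settings in turn, they were 7 to 10 and 3 to 13 from P3 to P7 (9 reported), 0 to 5 and 0 to 7 from P0 to P3 (2), 2 to 8 and 1 to 5 from P7 to P10 (3), 2 to 6 and 2 to 7 from P0 to P10 (5), 0 to 3 and 0 to 10 at P0 (1), 1 to 4 and 0 to 7 at P3 (2), 1 to 4 and 1 to 5 at P7 (1), 0 to 5 and 0 to 5 at P10 (4), and 0 to 2 and 0 to 3 for the mean over stages (0). Counts over all features moved as well. The 10 at P0 were of 53 members in ASJ arrays alone, where 1831 of 16041 features had one (984 of 22225 as reported). At P3, 7 of 53 had one in ASJ arrays alone (1940 of 16041 features) and 7 of 61 in ATJ arrays alone (1581 of 21375). As reported it was 1246 of 22225. From P3 to P7, 3 of 53 had one in ASJ arrays alone (1347 of 16041 features, and 2870 of 22225 as reported). From P3 to P7, 2 members passed as reported, 5 with array weights, 5 when the 3 sparsest arrays were left out, 1 without the array of conflicting stage labels, and 0 with arrays scaled to one spread, with the 12 cross-stage arrays alone, in euploid mice only, and in the arrays titled ASJ or ATJ alone. Leaving out 1 array gave 0 to 3 members. The share of all features that passed moved in the same direction. It was above the reported 1.26% in both settings with 5 members, and below it wherever 1 or 0 members passed. For any change with age, 0 passed as reported, 2 without moderation, 2 without the 3 arrays with the fewest values, and 0 to 1 leaving out 1 array. In both settings with 2 members the share of all features that passed was above the reported 0.567%. It was also above that with array weights, where 0 members passed. Subsets of arrays held fewer samples, and for the other settings the cause was not tested.

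Of 1492 recomputed values of named genes, 1438 kept their direction and side of the threshold, 26 no longer passed, 8 newly passed and 20 changed sign. The 26 were all Cdh3 and Cdh11 from P3 to P7, whose log2 values ran from 0.88 to 1.46 and from -1.39 to -1.11 leaving out 1 array. Cdh11 was -0.53 in ASJ arrays alone (adjusted p = 0.836) and -1.25 in ATJ arrays alone (adjusted p = 0.231), where Cdh3 was 1.47 (adjusted p = 0.123). With arrays scaled to one spread Cdh3 was 0.89 and Cdh11 -1.02. Among the 12 cross-stage arrays alone neither value moved, with adjusted p = 0.271 for Cdh3 and 0.15 for Cdh11. Without P7/P3 replicate 1 the adjusted p was 0.094 for Cdh3 and 0.215 for Cdh11. No value of Cdh3 could be had from ASJ arrays alone. The changes of sign were as follows, none past the threshold. Cdh6 at P10 became 0.35 without the 3 arrays with the fewest values, and ran from -2.70 to 0.35 leaving out 1 array. Cdh18 from P7 to P10 became -0.10 with one probe per gene and -0.17 without those 3 arrays, and ran from -0.17 to 1.75 leaving out 1 array. In ASJ arrays alone Pcdhb5 from P7 to P10 was 0.20, Cdh4 and Cdh24 from P0 to P10 were 0.076 and -0.21, and from P3 to P7 Fat3 was 0.072, Fat4 0.86 and Dchs1 -0.067. From P3 to P7 Cdh1 was 0.18 in ATJ arrays alone, and Cdh13 was 0.031 with a dye term per title prefix and 0.18 for the euploid step. Leaving out 1 array at that step, Cdh1 ran from -0.64 to 0.53, Cdh13 from -0.064 to 0.0064, Celsr3 from -0.95 to 0.024, Fat4 from -0.37 to 0.16 and Dchs1 from -0.12 to 0.19.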
